A study of Homo sapiens with 6 samples.

Results

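CENPT and THAP11 overlap on opposite strands of chromosome 16, and the reads counted on them differed in opposite directions in 22Rv1-ABHD5 cells given Dox: CENPT was 10.8-fold higher and THAP11 4.28-fold lower than without Dox. The 10 genes described here are CENPT, the genes that overlap it (TSNAXIP1, THAP11 and NUTF2) and near neighbours on the same stretch of the chromosome (RANBP10, EDC4, NRN1L, PSKH1, DDX28 and DUS2), of 27470 genes in the table of counts. The locus was picked because of the values of CENPT between the conditions in these same libraries, so the values of the 10 genes in that comparison are given as a description, without a test. The data are 3 libraries of 22Rv1-ABHD5 cells without Dox and 3 with Dox, labelled as control and as overexpressing ABHD5, harvested at 48 h. The parent line, 22Rv1, comes from a castration-resistant prostate cancer. All 6 libraries come from cells transduced with a lentivirus in which Dox switches on ABHD5, and selected with G418, so the control cells carry the vector too. Whether the line is a clone or a pool is not given in the sources used here. Since Dox was given only together with the induced gene, the effects of Dox and of ABHD5 cannot be told apart.

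CENPT encodes a subunit of the inner kinetochore, the set of proteins that sits on centromeric chromatin throughout the cell cycle. It pairs with CENPW through histone-like folds and, in mitosis, recruits the Ndc80 complex, which holds the microtubules of the spindle. THAP11, also called Ronin, encodes a zinc-finger transcription factor that works with the cofactor HCFC1 at the promoters of many housekeeping genes, often at sites shared with ZNF143. NUTF2 encodes the carrier that brings Ran back into the nucleus, and EDC4 a scaffold of mRNA decapping in P bodies. RANBP10 encodes a Ran-binding protein related to RANBP9 of the CTLH ubiquitin ligase. DDX28 is an RNA helicase of mitochondria, DUS2 a tRNA dihydrouridine synthase, PSKH1 a protein serine kinase and NRN1L a relative of the secreted protein neuritin. TSNAXIP1 is named for its binding to translin-associated factor X.

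In GENCODE 44 on hg38, CENPT lies on the minus strand of chromosome 16 from 67828157 to 67847811. THAP11, a gene of 1 exon from 67842320 to 67844195 on the plus strand, lies wholly inside an intron of the canonical CENPT transcript (67835659 to 67847400). Of 35 annotated CENPT transcripts, 6 start in a first exon that overlaps the THAP11 exon, between 67842958 and 67843337, and those 380 bases are annotated as exon on both strands. They lie 858 bases or more from the 3′ end of THAP11. The annotated 3′ end of the canonical CENPT transcript is 16038 bases from that of THAP11. It is 89 bases from that of the canonical TSNAXIP1 transcript, which runs toward it from the other side. NUTF2 starts 760 bases from CENPT on the opposite strand, and 166 bases are annotated as exon of both. DDX28 and DUS2 start 52 bases apart and point away from each other, as do RANBP10 and TSNAXIP1, 329 bases apart. Other DUS2 transcripts start farther upstream, so that DDX28 lies inside the annotated body of DUS2.

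The windows from 250 bases before to 50 after the start of CENPT, THAP11, NUTF2 and RANBP10 are shown because CENPT and THAP11 had the largest values, NUTF2 starts beside CENPT, and the RANBP10 window, like that of NUTF2, holds a motif of THAP11 (RefSeq, GRCh38.p14, read 5′ to 3′ along the gene). Of the 10 genes, 9 had such windows, with 2 for NUTF2, of which the one at its canonical start is shown. They are chr16:67847644-67847943 (minus strand) for CENPT, chr16:67842070-67842369 (plus) for THAP11, chr16:67846683-67846982 (plus) for NUTF2 and chr16:67806511-67806810 (minus) for RANBP10. Capitals mark letters that match the motif shared by THAP11 and ZNF143 (searched as ACTACA, any 2 bases, then TCC), the ETS motif CCGGAAGT or the YY1 motif AAGATGGC. Each was searched on both strands, and no matches overlapped in the windows shown.
CENPT: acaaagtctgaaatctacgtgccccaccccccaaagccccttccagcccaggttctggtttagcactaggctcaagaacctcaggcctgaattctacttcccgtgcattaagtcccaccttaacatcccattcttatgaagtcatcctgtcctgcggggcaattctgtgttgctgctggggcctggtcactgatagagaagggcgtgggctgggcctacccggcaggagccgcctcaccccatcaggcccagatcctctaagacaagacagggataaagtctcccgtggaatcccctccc
THAP11: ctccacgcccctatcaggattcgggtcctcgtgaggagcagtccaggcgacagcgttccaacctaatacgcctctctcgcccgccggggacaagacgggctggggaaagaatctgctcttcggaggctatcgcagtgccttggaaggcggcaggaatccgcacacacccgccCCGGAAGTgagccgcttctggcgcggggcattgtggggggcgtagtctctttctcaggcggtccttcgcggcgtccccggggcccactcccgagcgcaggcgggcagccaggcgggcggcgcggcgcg
NUTF2: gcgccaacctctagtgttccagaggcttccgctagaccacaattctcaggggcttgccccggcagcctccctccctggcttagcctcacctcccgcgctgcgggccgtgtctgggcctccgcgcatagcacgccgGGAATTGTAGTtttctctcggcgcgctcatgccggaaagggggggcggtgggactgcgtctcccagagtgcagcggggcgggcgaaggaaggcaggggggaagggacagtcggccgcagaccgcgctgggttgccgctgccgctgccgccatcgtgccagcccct
RANBP10: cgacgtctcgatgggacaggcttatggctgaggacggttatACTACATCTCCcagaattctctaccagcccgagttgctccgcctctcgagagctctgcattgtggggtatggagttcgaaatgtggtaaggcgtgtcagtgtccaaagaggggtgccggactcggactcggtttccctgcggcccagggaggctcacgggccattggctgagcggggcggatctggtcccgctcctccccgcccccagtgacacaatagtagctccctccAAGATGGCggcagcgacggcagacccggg
The THAP11 and ZNF143 motif was found in the NUTF2 window, on the opposite strand from 115 bases before the start, and in the RANBP10 window, from 209 bases before the start. It was in 2 of the 10 windows of the locus and in 1.89% of all 35116 promoter windows. CCGGAAGT was in the THAP11 and EDC4 windows and in 4.14% of all windows, and AAGATGGC in the RANBP10 window and in 2.89%. No searched motif was found in the CENPT window. A match is a run of letters and not a bound site, and 3′ reads do not show which annotated start was used.

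RNA was sequenced from the 3′ end of polyadenylated transcripts, and the values are reads counted per gene. Depth was 3394672 to 5988151 counts without Dox and 3460471 to 7271771 with Dox, and 12233 genes passed a filter on low counts. Of these, 25.6% had an adjusted p under 0.05 between the conditions (quasi-likelihood test of edgeR). The study names a REV kit in its methods and a FWD kit in the sample labels, and the use of strand in counting is not given in the sources used here, so reads of genes that overlap on opposite strands may have been assigned with error. Reads on no gene were 32.5% to 34.6% of the listed reads without Dox and 35.6% to 39.5% with Dox, and ambiguous reads 3.05% to 3.21% and 3.24% to 3.37%. The part of these in the results below was not tested. The labelled cell type was checked by 4 prostate and luminal markers (HOXB13, FOLH1, KRT8 and KRT18), which had 50 or more counts in every library. In CPM, which put the counts of each library on 1 total with TMM factors, HOXB13 was at 136.4 to 173.4 over all libraries. KRT18 was at 239.4 to 254.9 CPM without Dox and 152.1 to 177.6 CPM with Dox. ABHD5 itself was at 57.8 to 63.2 CPM without Dox and 91.3 to 130.3 CPM with Dox. Its log2 fold change was 0.91 (SE 0.15, adjusted p = 1.979e-04, edgeR's quasi-likelihood test). Whether 3′ reads of the vector's copy of ABHD5 were counted on this gene is not given in the sources used here. The value may therefore not measure the full induction. The labels do not say whether the libraries come from separate cultures, so p-values measure the spread between these libraries. Fewer cells that express a gene and less of its RNA per cell cannot be told apart in such bulk samples.

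CENPT had 44, 36 and 70 reads in the 3 libraries without Dox, or 11.5, 11.1 and 12.2 CPM. With Dox it had 421, 549 and 1034 reads, or 91.2, 152.2 and 135.3 CPM. The libraries without Dox lay close together, and the lowest library with Dox was far above the highest of them. The mean was 11.6 ± 0.537 CPM (SD, n = 3) without Dox and 126.2 ± 31.5 CPM (SD, n = 3) with Dox, a log2 fold change of 3.43 (SE 0.20). That placed CENPT at rank 35 from the top of the 12233 genes.

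THAP11 had 192, 158 and 405 reads without Dox, or 49.96, 48.8 and 70.4 CPM. With Dox it had 56, 40 and 120 reads, or 12.1, 11.1 and 15.7 CPM. Each library with Dox was below each library without Dox, and replicate 3 was the highest of both conditions. The mean was 56.4 ± 12.2 CPM (SD, n = 3) without Dox and 12.98 ± 2.42 CPM (SD, n = 3) with Dox, a log2 fold change of -2.10 (SE 0.19), at rank 47 from the bottom of the 12233 genes.

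**Figure D1:**
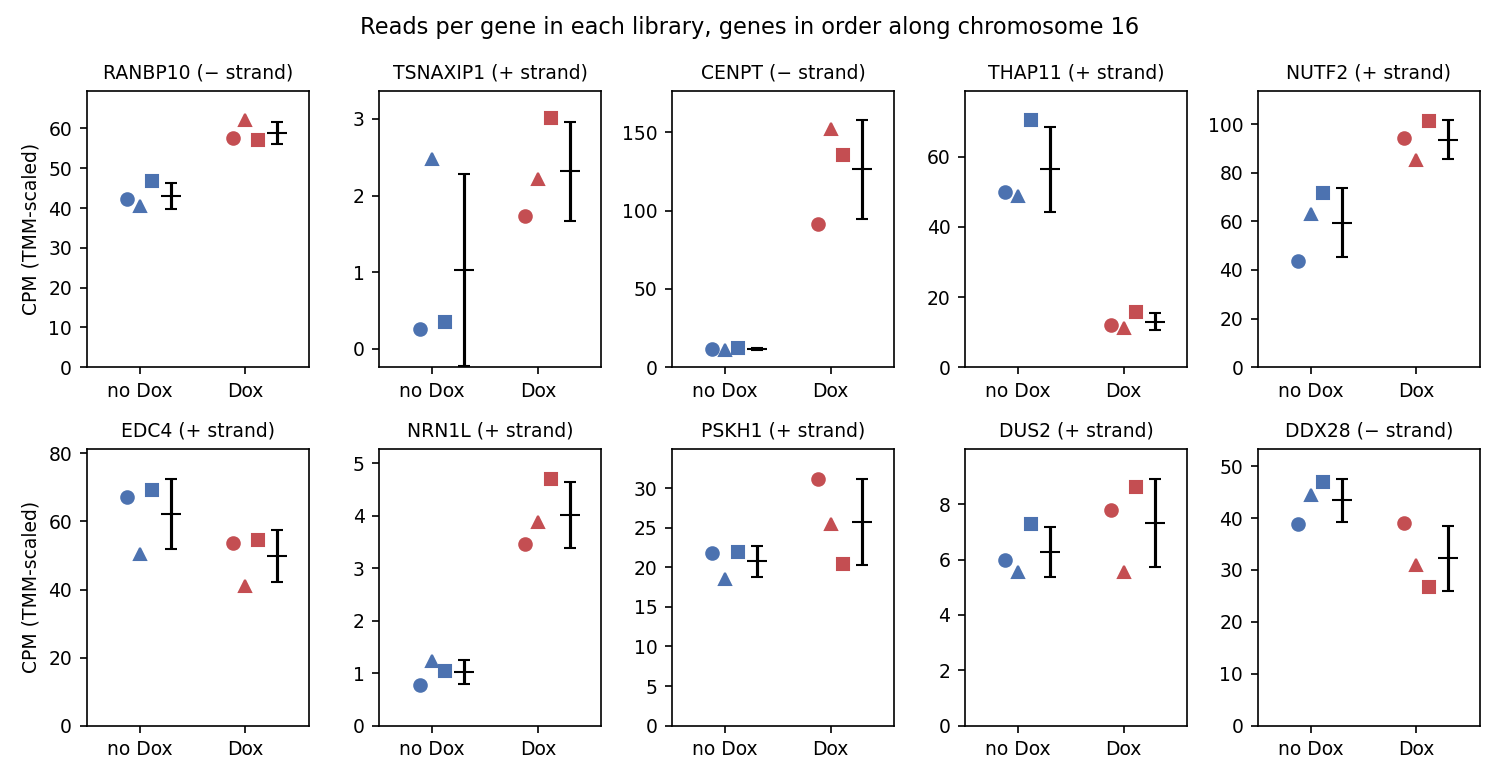
Reads per gene in CPM (linear axes, a separate one for each gene) in the 3 libraries without Dox (blue) and the 3 with Dox (red) for the 10 genes, in order along the chromosome. Symbols are replicates 1 (circle), 2 (triangle) and 3 (square), and bars are the mean ± SD (n = 3); CENPT, NUTF2, NRN1L and RANBP10 are higher and THAP11 lower with Dox in all libraries, and the conditions overlap for the other 5 genes.

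Within each library, the larger part of the pair's reads was on THAP11 without Dox and on CENPT with Dox. Without Dox, CENPT held 18.6% (95% Wilson interval 14.2% to 24.1%), 18.6% (13.7% to 24.6%) and 14.7% (11.8% to 18.2%) of the reads on CENPT and THAP11 together. With Dox it held 88.3% (85.1% to 90.8%), 93.2% (90.9% to 94.97%) and 89.6% (87.7% to 91.2%). These shares come from 1 library each, so they do not depend on how libraries are scaled, and the intervals cover counting error only. The conditions did not overlap, and the 3 libraries within a condition lay far closer to each other than to the other condition.

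**Figure D2:**
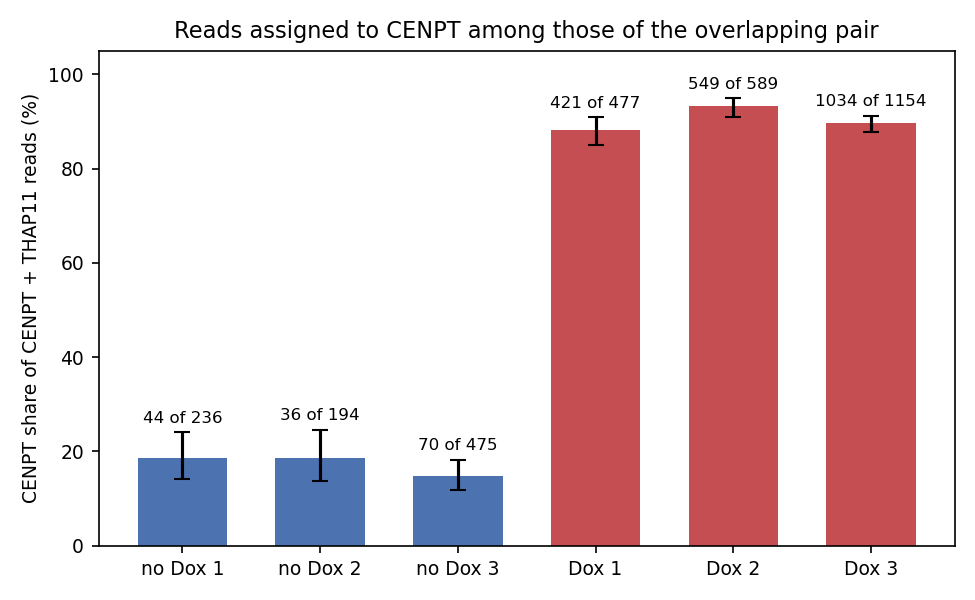
Share of the reads on CENPT and THAP11 that were assigned to CENPT, in percent, for each library without Dox (blue) and with Dox (red). Error bars are 95% Wilson intervals and the numbers give CENPT reads of all reads of the pair; the share is 14.7% to 18.6% without Dox and 88.3% to 93.2% with Dox.

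Summed over the pair, the opposite differences did not cancel. CENPT and THAP11 together had 68.0 ± 12.7 CPM (SD, n = 3) without Dox and 139.2 ± 31.7 CPM (SD, n = 3) with Dox, a log2 fold change of 1.02 (SE 0.17), and the conditions did not overlap. The mean of CENPT was higher by more than the mean of THAP11 was lower. Summed with NUTF2, which shares 166 annotated exon bases with it, CENPT had a log2 fold change of 1.62 (SE 0.16). Summed with TSNAXIP1, which shares 596, it had 3.35 (SE 0.19).

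Other genes that overlap on opposite strands give a background for the pair. Of 1558 such pairs in which both genes were tested, 1 had a gene at least 2-fold higher and the other at least 2-fold lower with Dox, and that pair was CENPT and THAP11 (0.0642% of the pairs). Their log2 fold changes lay 5.53 apart, against a median of 0.38 over all pairs, the largest gap of the 1558. In 70 pairs (4.49%) all libraries with Dox were above those without for 1 gene and below for the other. Of the 235 pairs in which 1 gene lies inside the other, 9 did so (3.83%). The pair was chosen with its values known, so its place among the others is a description.

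The genes next to the pair showed smaller differences than CENPT, most of them upward. Of the 10 genes, 4 were higher with Dox in all libraries, against 19.0% of all genes tested, and 1 was lower, against 20.5%. The 4 include CENPT, by whose values the locus was picked. They also include NRN1L, which passed the filter on low counts through its libraries with Dox. These counts are therefore a description and not independent of how the genes were chosen. Of the 10 genes, 9 passed the filter on low counts, all but TSNAXIP1. NUTF2, which starts beside CENPT on the other strand, had 43.7, 63.0 and 71.8 CPM without Dox and 94.5, 85.1 and 101.2 CPM with Dox. Its log2 fold change was 0.65 (SE 0.16), and the conditions did not overlap, although replicate 1 without Dox was well below the other two. RANBP10, on the far side of TSNAXIP1, had 42.2, 40.5 and 46.8 CPM without Dox and 57.6, 62.1 and 57.1 CPM with Dox. Its log2 fold change was 0.44 (SE 0.14), a small difference with little spread within either condition. The windows of NUTF2 and RANBP10 hold a match of letters to the THAP11 and ZNF143 motif. Whether the motif has a part in these values was not tested.

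NRN1L, downstream of EDC4 on the plus strand, was barely detected. It had 3, 4 and 6 reads without Dox and 16, 14 and 36 with Dox, or 0.781, 1.24 and 1.04 CPM against 3.47, 3.88 and 4.71 CPM. Its log2 fold change was 1.98 (SE 0.43), with no overlap between the conditions, but replicate 1 without Dox was at the detection limit of 3 reads. EDC4, the gene between NUTF2 and NRN1L, had 67.1, 50.4 and 69.2 CPM without Dox and 53.7, 41.0 and 54.6 CPM with Dox. The conditions overlapped, and the log2 fold change was -0.32 (SE 0.16). So EDC4 had a value below 0 between a pair of genes with values above 0 on the same strand.

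TSNAXIP1, whose 3′ end faces that of CENPT, had 1, 8 and 2 reads without Dox and 8, 8 and 23 with Dox. The conditions overlapped through replicate 2 without Dox. The log2 fold change, from the fit without a filter, was 1.36 (SE 0.62), and it was 2.83 without replicate 2 without Dox and 0.85 without replicate 3 without Dox. PSKH1 had 21.9, 18.5 and 21.9 CPM without Dox and 31.2, 25.5 and 20.4 CPM with Dox, a log2 fold change of 0.29 (SE 0.19) with overlap. That value was 0.12 without replicate 1 with Dox.

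DDX28 and DUS2, which start back to back farther along the chromosome, both overlapped between the conditions. DDX28 had 38.8, 44.5 and 47.0 CPM without Dox and 39, 31.05 and 26.7 CPM with Dox, a log2 fold change of -0.44 (SE 0.17). Only replicate 1 with Dox reached the range without Dox. DUS2 had 5.99, 5.56 and 7.30 CPM without Dox and 7.80, 5.545 and 8.64 CPM with Dox, a log2 fold change of 0.23 (SE 0.28). That value was 0.079 without replicate 3 with Dox. No sign of the 10 log2 fold changes turned when another scaling, filter or test was used or a library was left out (13 alternatives in all). Genes that failed a filter kept their value from the fit without a filter. The other filters therefore could not change the value of TSNAXIP1, and the filter of 10 counts did not test that of NRN1L.

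**Figure D3:**
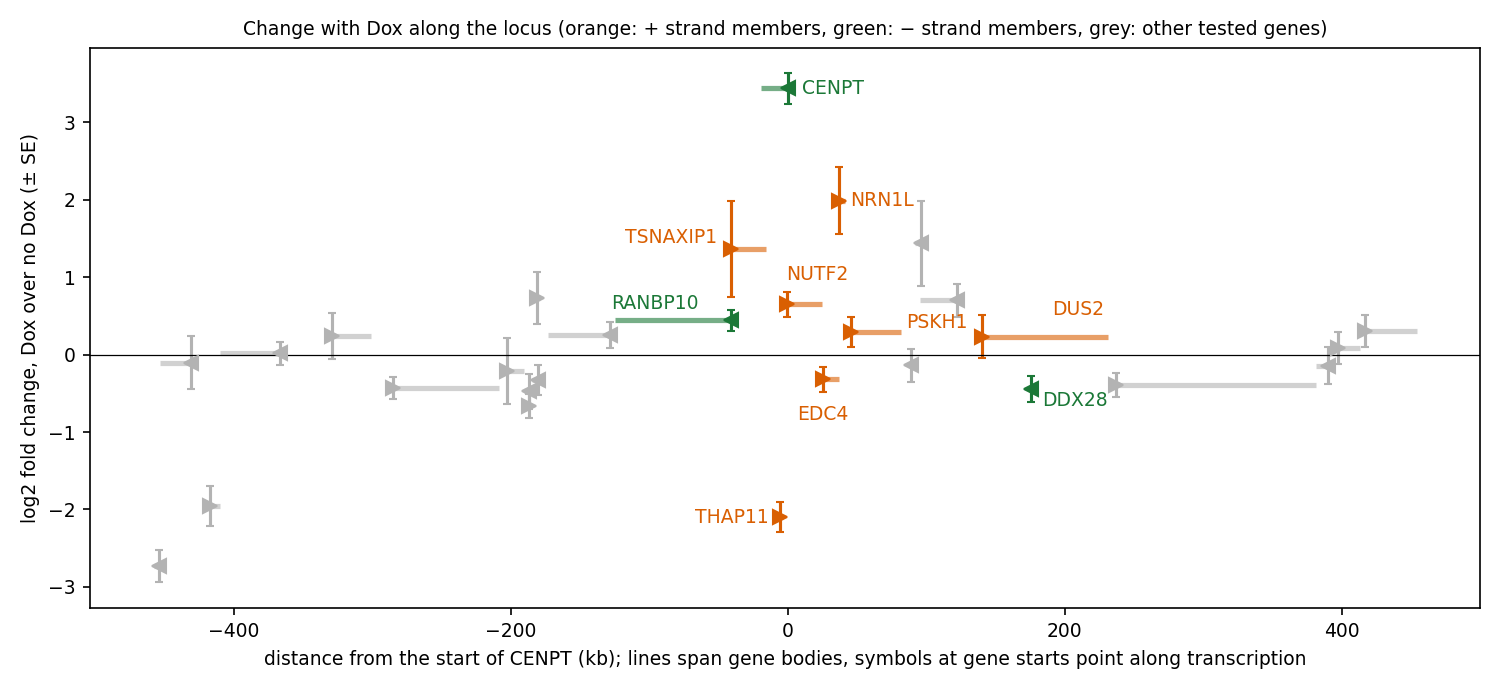
Log2 fold change of Dox over no Dox (± SE) against the distance in kb from the start of CENPT, for the 10 genes (orange plus strand, green minus strand) and for the other tested genes of the region (grey). Lines span gene bodies and symbols point along transcription; CENPT at 3.43 and THAP11 at -2.10 stand apart from the genes next to them, and the 2 lowest grey points are TPPP3 at -454.3 kb and HSD11B2 at -417.2 kb.

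The genes were also summed by strand. CENPT, RANBP10 and DDX28 together had 98.1 ± 6.99 CPM (SD, n = 3) without Dox and 217.4 ± 28.8 CPM (SD, n = 3) with Dox. Without CENPT, the other minus-strand genes had 86.5 ± 6.54 and 91.2 ± 6.66 CPM, a sum in which RANBP10 was higher and DDX28 had a lower mean with Dox. The 7 plus-strand genes had 207.3 ± 30.1 CPM without Dox and 195.7 ± 18.5 CPM with Dox, and without THAP11 the other 6 had 150.9 ± 18.0 and 182.7 ± 16.8 CPM.

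The genes around the locus were not chosen by their values and were tested. Within 500 kb of CENPT, 25 other annotated genes were in the table and 19 were tested; 1 rose and 4 fell, 26.3% of those tested against 25.6% of all genes (edgeR's quasi-likelihood test, adjusted p under 0.05). Their median log2 fold change was -0.14, against 0.02 for all genes. SLC12A4, which encodes a potassium-chloride cotransporter and lies 121.8 kb from the start of CENPT, rose from 12.7 ± 2.80 to 20.5 ± 2.17 CPM (SD, n = 3 each; adjusted p = 0.0221, edgeR), a log2 fold change of 0.70. PARD6A, which encodes a cell polarity protein, fell by 0.66 on the log2 scale, and CTCF, which encodes the insulator-binding protein, fell by 0.43. The falls at the edge of the region were larger. HSD11B2, which encodes the enzyme that inactivates cortisol, fell by 1.96 on the log2 scale (adjusted p = 2.283e-05, edgeR). TPPP3, a relative of a tubulin polymerization-promoting protein, fell by 2.73, from 51.2 ± 11.2 to 7.84 ± 1.28 CPM (SD, n = 3 each; adjusted p = 4.153e-08, edgeR). Within 250 kb, 2 of 9 tested genes passed. Within 500 kb, 3 of the 5 calls were left when replicate 3 with Dox was left out. SLC12A4 lost its call without replicate 1 without Dox or replicate 3 with Dox, and CTCF without replicate 1 or 2 without Dox or replicate 1 or 3 with Dox and under library totals alone.

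Genes of complexes or families linked to CENPT, THAP11, EDC4, NUTF2, RANBP10 and DUS2 were counted next, from lists of 72 genes, all of which were tested. No list was made for the other genes of the locus. Most of the inner kinetochore genes fell, whereas CENPT was higher. Of 16 genes of the inner kinetochore (the CCAN and the centromeric histone CENPA), 11 fell, 1 rose and 4 did not pass, with a median log2 fold change of -0.64, whereas 13.7% of all genes fell and 11.9% rose (edgeR's quasi-likelihood test, adjusted p under 0.05). CENPW, the direct partner of CENPT, had 76.25, 78.5 and 92.7 CPM without Dox and 41.6, 38.8 and 39.9 CPM with Dox, a log2 fold change of -1.04 (SE 0.14, adjusted p = 2.658e-05, edgeR). CENPM and CENPN fell by 1.41 and 1.24. Of the other histone-fold subunits that bind the pair, CENPX fell by 0.41 and CENPS had -0.41 and did not pass (adjusted p = 0.144, edgeR). CENPC, which links centromeric nucleosomes to the kinetochore, rose by 0.48 on the log2 scale, and it lost its call without any 1 library without Dox or without replicate 2 with Dox. CENPX, named here after its value was seen, lost its call without replicate 1 or 2 of either condition and under library totals alone, where 7 of the 16 genes fell. Without any 1 library, 8 to 10 of the 16 fell.

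Of 10 genes of the outer kinetochore that CENPT helps to recruit, 7 fell, 0 rose and 3 did not pass, with a median log2 fold change of -0.74 (same test). The 7 included all 4 subunits of the Ndc80 complex: NUF2 fell by 0.90, SPC25 by 0.89, SPC24 by 0.86 and NDC80 by 0.81 on the log2 scale. DSN1, of the Mis12 complex, fell by 0.92, while MIS12 itself had 0.05 and did not pass. Each of these 7 calls held in all 13 alternatives. CENPT had the highest log2 fold change among the 27 genes of CENPT and its inner and outer kinetochore lists. It was picked with its value known, so this place is a description.

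**Figure D4:**
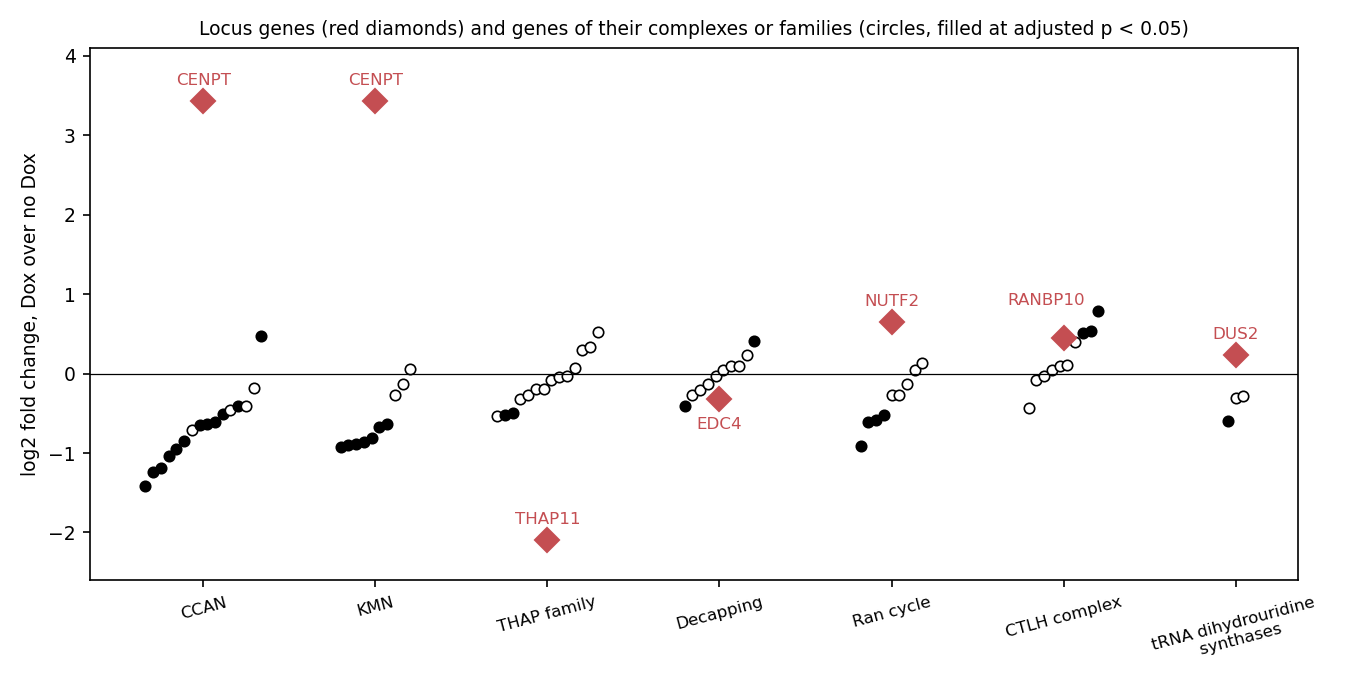
Log2 fold change of Dox over no Dox for genes of 7 complexes or families (circles) and for the gene of the locus linked to each (red diamonds). Circles are filled where the adjusted p was under 0.05 in edgeR's quasi-likelihood test. CENPT is drawn for both the inner and the outer kinetochore lists. CENPT at 3.43 is far above the inner (CCAN) and outer (KMN) kinetochore genes, which are mostly below 0, and THAP11 at -2.10 is below all genes of the THAP list.

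The partners of the other genes were read against the same background, in which 25.6% of all genes were called, 13.7% as lower and 11.9% as higher. Among 14 genes of the THAP family and the partners of THAP11, 2 fell and 0 rose, or 14.3%, close to the 13.7% of all genes that fell. HCFC1, the cofactor of THAP11, fell by 0.50 (adjusted p = 0.00857, edgeR) and THAP7 by 0.53, while ZNF143 had -0.03 and did not pass. HCFC1 lost its call without replicate 1 without Dox, and THAP7 without replicate 1 or 3 without Dox, without replicate 3 with Dox and under library totals alone. Of 9 genes of the Ran cycle, to which NUTF2 belongs, 4 fell, 0 rose and 5 did not pass, or 44.4% called against 25.6% of all genes. RCC1, the exchange factor of Ran, fell by 0.91, KPNB1, an importin, by 0.61, RANBP1 by 0.59 and RAN itself by 0.53, the last without a call when replicate 3 without Dox was left out.

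Of 10 genes of the CTLH complex, 3 rose and 0 fell, or 30% called. Of all genes, 25.6% were called in either direction and 11.9% as higher. They were YPEL5, by 0.79, RMND5A, by 0.54, and WDR26, by 0.51. RANBP9, the relative of RANBP10, had 0.40 and did not pass (adjusted p = 0.219, edgeR). WDR26 lost its call without replicate 1 or 2 without Dox or replicate 3 with Dox. Of 10 genes of decapping and decay, XRN1 rose by 0.41 and PATL1 fell by 0.40, or 20% called against 25.6% of all genes. XRN1 lost its call without any 1 library without Dox and without replicate 1 or 2 with Dox. PATL1 was past the threshold in 4 of 13 alternatives, and lost its call under library totals alone, DESeq2, the filter of 10 counts, the deposited values and without any 1 library other than replicate 1 with Dox. Of the 3 other dihydrouridine synthases tested, DUS1L fell by 0.60, and it lost its call without replicate 1 or 2 without Dox or replicate 2 or 3 with Dox and under library totals alone.

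Genes with the motif of THAP11 and ZNF143 in their promoter window were also counted, as THAP11 was lower. This list was chosen after the values of THAP11 were known. Apart from the locus, 454 tested genes had this motif in a window, of which 51 rose and 55 fell, 23.3% against 26.1% of the 8869 tested genes with a window and no such match. The medians of the log2 fold change were 0.05 and 0.01. These shares differ little, and a match of letters does not show that THAP11 binds there.

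The genes whose profile over the 6 libraries was most like that of CENPT were sought among 9413 tested genes with a mean of at least 50 counts. Likeness was the root mean square difference of log2 CPM after centring each gene on its mean. The closest was SLC25A36, a mitochondrial pyrimidine nucleotide carrier, with a difference of 0.19 and 57.8 to 79.5 CPM without Dox against 546.4 to 704 CPM with Dox. It was followed by PLK2, a polo-like kinase, with 0.22, PTPRZ1, a receptor tyrosine phosphatase, with 0.30, TPBG, a cell surface glycoprotein, with 0.34, and RAPH1, a regulator of actin-based protrusions, with 0.34. Their log2 fold changes were 2.99 to 3.66. The measure follows the size of the change between the conditions, so it picks genes with a change like that of CENPT.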

How the data were processed

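Gene expression was measured by 3′ sequencing in 6 libraries of 22Rv1-ABHD5 cells, 3 per condition. The submitters' processing notes name CASAVA 1.8.2, FastQC, STAR, HTSeq and edgeR, with hg38. The authors deposited 1 table of raw counts by gene symbol and, for each library, a file of normalized signal scaled by a method not given in the sources used here. The annotation and strand setting are not given there either. The 5 rows that name no gene, among them reads on no gene (32.5% to 39.5% of listed reads) and ambiguous reads (3.05% to 3.37%), were left out of library sizes and tests.

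Counts were tested with edgeR 4.0.16 in R 4.3.3 (TMM scaling, the filterByExpr filter and the quasi-likelihood test), with p adjusted by Benjamini-Hochberg over all genes and a threshold of 0.05. Alternatives were DESeq2 1.42.0, its size factors, library totals alone, no filter, at least 10 counts in every library, a replicate block, each library left out, sums of overlapping genes, and limma 3.58.1 on log2(signal + 1) of the deposited values, over 27443 shared names. CPM put the counts of each library on 1 total with TMM factors. For profiles, 0.5 CPM was added before log2. The fit was tested on simulated data.

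The members and gene lists were chosen with earlier results of these data known. The genes named were the 10 of the locus, ABHD5, flanking genes with an adjusted p under 0.05 (at most 8), in each partner list up to 3 called genes per direction by p, and the 5 genes most like CENPT. Other genes named were chosen after their values were seen. Gene models are those of GENCODE 44 on hg38, and promoter windows those of RefSeq (GRCh38.p14).

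Depth was 3394672 to 7271771 counts, so that 3 counts, taken as the detection limit, are 0.393 to 0.927 CPM. Reads carry no molecular identifiers, so this limit and the intervals cover counting error only. Replicates differed by more than sampling noise (chi-square per degree of freedom 4.24 to 12.6), and each library was counted as 1 sample. Some of the markers looked at for the cell type are not reported here.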

Additional observations from a re-analysis of the deposited data

How the results depend on the processing

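Across 13 alternatives the log2 fold change of CENPT was 3.28 to 3.62 and that of THAP11 -2.29 to -1.90, the limits coming from the fits that left out a library. Summing overlapping genes changed values by construction: CENPT and THAP11 summed had 1.02, which turns the sign of THAP11, CENPT and NUTF2 summed had 1.62, and DUS2 and DDX28 summed had -0.34, which turns the sign of DUS2. The number of the 10 genes without overlap between conditions was 5, where 39.5% of all genes tested had no overlap in either direction. It was 5 to 7 without 1 library. Fewer libraries overlap less easily, and the share of all genes was not counted there. The flanking genes past the threshold were 5, 2 within 250 kb (fewer genes tested) and 3 to 5 without 1 library, lowest without replicate 3 with Dox. Genes past the threshold numbered 3126 (25.6% of those tested), and 2181 to 3112 without 1 library. Partner genes past the threshold numbered 31 of 72 (43.1%), and 22 to 27 without 1 library. ABHD5 was 0.81 to 1.06 and past the threshold in each. Under library totals alone the median of all genes moved from 0.02 to 0.14 on the log2 scale and the higher calls went from 46.4% to 65.5% of all calls, so small differences are relative to that shift. The replicate numbers gave a sign of pairing for number 2 alone. Across genes, the deviations from the group means had r of -0.0303, 0.343 and 0.091 between libraries of numbers 1, 2 and 3. Only number 2 had its best partner in its own number. Depth was lowest in number 2 and highest in number 3 in both conditions. With a replicate block 3539 genes passed. Depth limits NRN1L and TSNAXIP1, which had under 10 reads in every library without Dox.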
